A study of Homo sapiens with 18 samples.

Results

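The 10 genes described here encode 7 mucins (MUC1, MUC4, MUC5AC, MUC5B, MUC13, MUC16 and MUC20) and the 3 trefoil factors (TFF1, TFF2 and TFF3). They were taken by symbol from a table of 26249 genes, and all 10 were listed there. Only MUC1 had a mean of at least 1 FPKM (fragments scaled to transcript length and library, here also to spike-ins) over the 18 libraries. The other 9 genes were too low for the test across expressed genes and are described by their levels, and by a test that kept every gene.

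The libraries came from PATU-8902 and PATU-8988T, established human cell lines of pancreatic ductal adenocarcinoma (PDAC). Each line was given 2.5 µM DCLK1-IN-1, a compound that blocks the kinase activity of DCLK1, during 6 h or 24 h, or the solvent DMSO for 24 h, with 3 libraries in each of the 6 groups. The only DMSO cultures were those of 24 h, so at 6 h the time in culture and the inhibitor cannot be told apart. Each PDAC line is a single culture model without the stroma of a tumour, and the series record describes the 3 libraries of a group as biological triplicates. Levels were set against ERCC spike-ins added per cell number, so they are meant to follow RNA per cell. They are averages over a culture, in which fewer expressing cells and less RNA per cell cannot be told apart.

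Mucins are large glycoproteins whose serine- and threonine-rich domains carry dense O-linked sugars. Membrane mucins (MUC1, MUC4, MUC13 and MUC16) span the surface of epithelial cells, whereas MUC5AC and MUC5B are secreted and form gels. Trefoil factors are small disulfide-bonded peptides that are secreted together with gel-forming mucins and take part in mucosal repair. In pancreatic cancer MUC1 is widely expressed, MUC16 carries the serum marker CA-125, and MUC5AC and TFF1 are known from precursor lesions and from tumours of the classical type.

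Promoter sequence is shown for MUC1, whose level differed most between the lines, and for MUC4, a membrane mucin near the bottom of the scale in both lines. RefSeq windows (build GRCh38.p14) were found for 4 of the 10 genes, MUC1, MUC4, MUC13 and MUC16. Each runs over the 250 bases before the annotated start, 5′ to 3′ on the gene's own strand. Capitals mark matches to the TATA box TATAAA, the GC box GGGCGG or the E-box CACCTG, each searched on both strands, so that a minus-strand GC box reads CCGCCC. The MUC1 window lies at chr1:155192916-155193165 and the MUC4 window at chr3:195811930-195812179, both on the minus strand.
MUC1: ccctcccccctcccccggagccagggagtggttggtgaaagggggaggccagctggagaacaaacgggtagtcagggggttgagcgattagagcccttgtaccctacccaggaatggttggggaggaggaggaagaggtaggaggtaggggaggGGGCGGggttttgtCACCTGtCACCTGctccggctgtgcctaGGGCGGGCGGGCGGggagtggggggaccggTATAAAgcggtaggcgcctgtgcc
MUC4: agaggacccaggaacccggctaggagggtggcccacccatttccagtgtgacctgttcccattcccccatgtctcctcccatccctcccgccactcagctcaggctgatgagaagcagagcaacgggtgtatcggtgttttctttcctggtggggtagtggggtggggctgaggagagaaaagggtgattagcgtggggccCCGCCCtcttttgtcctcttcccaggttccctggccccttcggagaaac
The MUC1 window held 1 TATA box, beginning 24 bases before the start, and 4 GC boxes, beginning 96, 54, 50 and 46 bases before it, the last 3 of which overlap. It also held 2 E-boxes, 82 and 75 bases before the start. The MUC4 window held 1 GC box on the minus strand, 49 bases before the start, and the MUC16 window 1 on the same strand, 47 bases before it. No match was found in the MUC13 window. Of the 35116 RefSeq windows of this length, 10.7% held TATAAA, 42.6% held GGGCGG and 17.5% held CACCTG. G and C made up 66.0% of the MUC1 window and 60.4% of the MUC4 window.

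Libraries of a group correlated at 0.957 to 0.981. Between 10049 and 11423 genes reached 1 FPKM in a library. The table holds no read counts, so the sequencing depth is unknown and counting intervals cannot be computed. No gene was listed at 0. In every library one value, called the floor here, was shared by 6993 to 7062 genes (equal within 1e-06), and it lay between 0.0795 and 0.118 FPKM. The floor was not the minimum: between 10 and 3588 genes of a library lay below it, down to 0.0614 FPKM. Differences between values at or below the floor are therefore not read as an order of expression.

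MUC1, a transmembrane mucin of glandular epithelium, was the only one of the 10 genes expressed at a high level, and only in PATU-8902. In PATU-8902 it stood at 96.5, 78.2 and 80.8 FPKM in DMSO, at 72.6, 106.3 and 75.6 FPKM after 6 h of inhibitor and at 85.3, 77.1 and 110.0 FPKM after 24 h. In PATU-8988T it stood at 0.585, 0.823 and 1.09 FPKM in DMSO, at 0.523, 0.419 and 0.599 FPKM after 6 h and at 0.414, 0.457 and 0.570 FPKM after 24 h. The lines did not overlap in any condition, and non-overlap in this direction held for 46.5% of tested genes in DMSO, 42.1% after 6 h and 72.7% after 24 h. PATU-8902 libraries ranked MUC1 between 1151 and 1352 among the 26249 genes, and PATU-8988T libraries between 10800 and 11874. Even there MUC1 remained above the floor, at 4.58 to 10.03 times its value.

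On the log2(FPKM + 1) scale MUC1 was higher in PATU-8902 than in PATU-8988T by 5.56 ± 0.19 in DMSO (SE, limma, adjusted p = 2.23e-14). The difference was 5.81 ± 0.19 after 6 h of inhibitor (adjusted p = 1.28e-14) and 5.94 ± 0.19 after 24 h (adjusted p = 7.50e-15). Adding 1 FPKM understates the change of a low gene. The ratio of group means in FPKM was 102 in DMSO, 165 after 6 h and 189 after 24 h. Over all 11477 tested genes the median of the log2 differences between the lines was 0.45 in DMSO, 0.44 after 6 h and 0.84 after 24 h. With each library centred on its own median, the MUC1 difference was 5.06 in DMSO, 5.33 after 6 h and 5.03 after 24 h, each ± 0.14 (adjusted p of 2.12e-14, 1.21e-14 and 2.42e-14). Many genes separate these lines: in DMSO 54.2% of tested genes passed at an adjusted p below 0.05 in either direction, with 41.8% higher and 12.4% lower in PATU-8902. The shares in either direction were 51.5% after 6 h and 71.4% after 24 h. On centred values they were 72.2% in DMSO (34.4% higher and 37.8% lower), 69.8% after 6 h and 71.6% after 24 h.

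**Figure D1:**
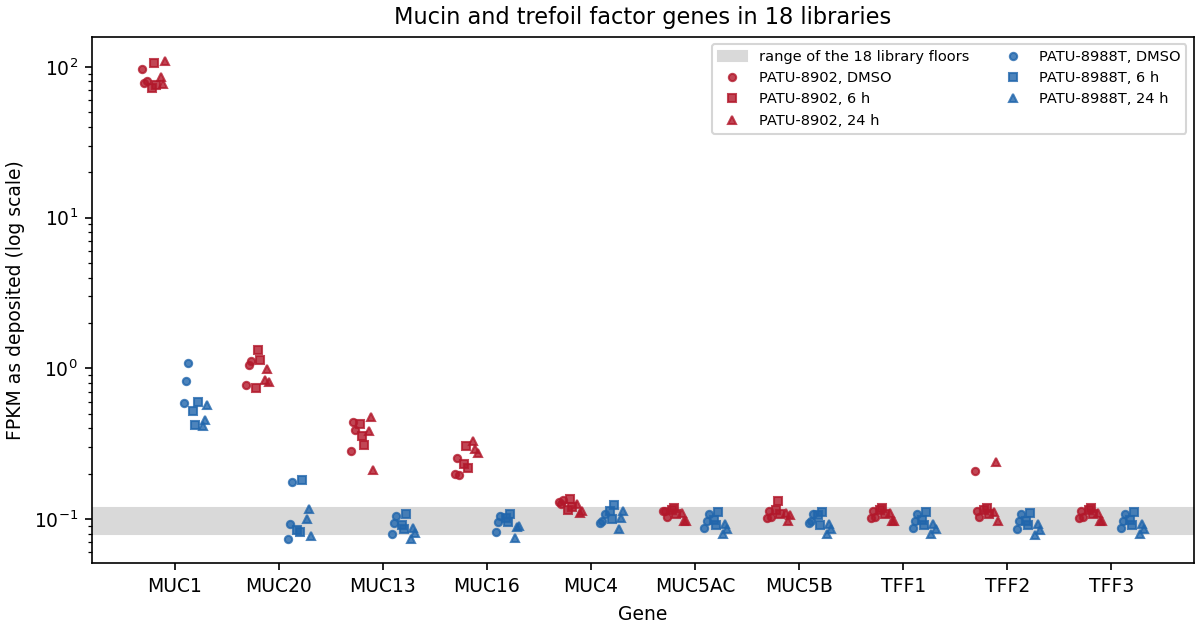
FPKM of each gene in every library on a log axis, with PATU-8902 in red to the left and PATU-8988T in blue to the right of each gene, and the range of the library floors in grey. MUC1 lies between 72.6 and 110.0 FPKM in PATU-8902 and between 0.414 and 1.09 FPKM in PATU-8988T, while MUC5AC, MUC5B, TFF1 and TFF3 lie in or next to the floor band in both lines.

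MUC20, MUC13 and MUC16 were also higher in PATU-8902, at levels near or under 1 FPKM, and were at or near the floor in PATU-8988T, a direction that held on deposited values but not for all of them on values centred on the library median. MUC20, a small mucin known to bind the receptor MET, was at 0.778, 1.06 and 1.12 FPKM in PATU-8902 in DMSO, against 0.0741, 0.0926 and 0.175 FPKM in PATU-8988T in DMSO. Over all conditions it ran from 0.738 to 1.33 FPKM in PATU-8902 (median 0.990) and from 0.0741 to 0.182 FPKM in PATU-8988T (median 0.0926). All 9 PATU-8902 libraries were above all 9 PATU-8988T libraries. The share of genes with such non-overlap of 9 against 9 was not computed. Within a condition, 3 libraries against 3, 26.1% of all 26249 genes had it in this direction in DMSO, 25.9% after 6 h and 72.9% after 24 h. After 24 h the floor itself did not overlap, at 0.0963 to 0.110 FPKM in PATU-8902 and 0.0795 to 0.0930 FPKM in PATU-8988T. In the GENCODE 29 annotation MUC20 overlaps the transcript MUC20-OT1 and has a pseudogene copy, MUC20P1, and the use of strand in counting is not stated, so its value may include reads of these.

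MUC13, a membrane mucin of the gut lining, was at 0.284, 0.437 and 0.388 FPKM in PATU-8902 in DMSO. The PATU-8988T libraries in DMSO were at 0.0797, 0.0946 and 0.104 FPKM. Its range was 0.212 to 0.472 FPKM in PATU-8902, and in PATU-8988T every library lay slightly under the floor, at 0.919 to 0.971 of its value. MUC16, the membrane mucin that carries CA-125, was at 0.1995, 0.253 and 0.196 FPKM in PATU-8902 in DMSO and at 0.0815, 0.0953 and 0.105 FPKM in PATU-8988T in DMSO. The lines did not overlap for either gene. Measured against the floor of its own library, MUC13 reached 2.20 to 4.88 times and MUC16 1.91 to 3.01 times that value in PATU-8902.

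The test over all 26249 genes put the MUC20 difference in DMSO at 0.83 ± 0.09 (SE, limma, adjusted p = 3.44e-06), that of MUC13 at 0.32 ± 0.05 (adjusted p = 2.67e-04) and that of MUC16 at 0.15 ± 0.02 (adjusted p = 1.46e-04), all on the log2(FPKM + 1) scale. The 3 genes passed after 6 h as well, with differences of 0.88, 0.32 and 0.18, and after 24 h, with 0.77, 0.32 and 0.26. Of all 26249 genes, 20.9% were called higher in PATU-8902 in DMSO, 20.9% after 6 h and 31.1% after 24 h. With a pseudocount of 0.1 in place of 1, the DMSO differences were 2.36 for MUC20, 1.27 for MUC13 and 0.70 for MUC16. With each library centred on its median, the DMSO difference was 0.33 for MUC20 (adjusted p = 0.188), -0.18 for MUC13 (adjusted p = 0.522) and -0.35 for MUC16 (adjusted p = 0.174), none past the threshold. After 24 h the centred differences were -0.14 for MUC20 (adjusted p = 0.576), -0.59 for MUC13 (adjusted p = 0.0350) and -0.65 for MUC16 (adjusted p = 0.0137). In that centred comparison 70.6% of all 26249 genes were called lower in PATU-8902. On that scale TFF1, which stood at the floor in all 18 libraries, itself stood at -0.49 in DMSO and -0.89 after 24 h, because the centring subtracts a different amount from much the same floor in each line.

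**Figure D2:**
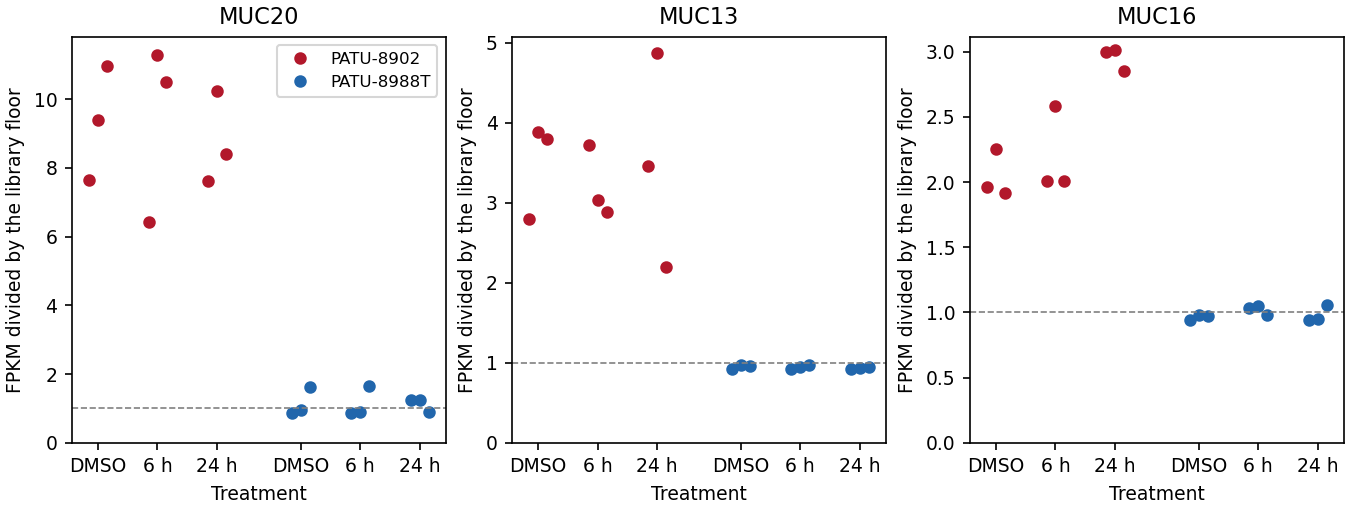
FPKM of MUC20, MUC13 and MUC16 divided by the floor of the same library, by line and treatment, with 1 point for each library and the dashed line at the floor. PATU-8902 libraries stand above the floor for all 3 genes, by up to 11.3 times for MUC20, and PATU-8988T libraries lie within 0.854 and 1.64 times the floor.

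MUC4, a membrane mucin that interacts with the receptor ERBB2, was hardly above the floor in either line. It ran from 0.110 to 0.135 FPKM in PATU-8902 and from 0.0859 to 0.124 FPKM in PATU-8988T, ranges that overlap. In the test over all genes MUC4 passed in DMSO with a difference of 0.04 ± 0.01 (SE, limma, adjusted p = 0.0140), but neither after 6 h (adjusted p = 0.258) nor after 24 h (adjusted p = 0.108). Centred on the library median this difference was -0.46, again next to the shift of the floor itself.

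The gel-forming airway and gastric mucins and the trefoil factors lay at the floor or close to it, apart from TFF2 in 2 libraries. MUC5AC, the main mucin of gastric surface cells, lay between 0.0963 and 0.118 FPKM in PATU-8902 and between 0.0795 and 0.111 FPKM in PATU-8988T, at most 1.11 times the floor. MUC5B, a mucin of airway and biliary glands, was likewise at most 1.11 times the floor in PATU-8902 and 1.09 times in PATU-8988T. TFF1 and TFF3, peptides of gastric surface cells and of intestinal goblet cells, were at the floor in 18 of 18 libraries. TFF2, a peptide of gastric mucous neck and gland cells, stood out in just 2 libraries of PATU-8902, with 0.208 FPKM in 1 DMSO library and 0.239 FPKM in 1 library of 24 h inhibitor, 2.05 and 2.47 times the floor. The other 16 libraries were at or next to the floor, including the other 2 of each of those groups.

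MUC1 therefore made up 96.9% to 98.3% of the summed FPKM of the 10 genes in PATU-8902. In PATU-8988T its share was 33.8% to 51.3%, the rest being values mostly at the floor. In order of level PATU-8902 held MUC1, then MUC20, then MUC13 and MUC16, and the ranges of the last pair overlapped each other. In PATU-8988T MUC1 came first and the ranges of the other 9 genes overlapped one another.

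Under the inhibitor none of the 10 genes passed the threshold in either line, with or without the filter on low genes. MUC1 in PATU-8902 averaged 84.8 ± 18.7 FPKM after 6 h of inhibitor and 85.1 ± 9.90 FPKM in DMSO (SD, n = 3 each), a log2 change of -0.02 ± 0.19 (SE, limma, adjusted p = 1.00). After 24 h it averaged 90.8 ± 17.1 FPKM, a log2 change against DMSO of 0.08 ± 0.19 (adjusted p = 1.00). The treated and DMSO libraries overlapped at both times. Among all tested genes 0.00871% passed at 6 h and 0.113% at 24 h in PATU-8902. In the test without the filter the shares of all genes were 0.0267% at 6 h and 0.0952% at 24 h in PATU-8902, and 0.00762% and 0.0114% at these times in PATU-8988T.

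In PATU-8988T MUC1 averaged 0.513 ± 0.0903 FPKM after 6 h of inhibitor, against 0.832 ± 0.252 FPKM in DMSO (SD, n = 3 each), a log2 change of -0.27 ± 0.19 (SE, limma, adjusted p = 1.00). After 24 h it averaged 0.480 ± 0.0805 FPKM, a log2 change of -0.30 ± 0.19 (unadjusted p = 0.134, adjusted p = 0.334). The 3 libraries of 24 h inhibitor all lay below the 3 DMSO libraries, as did those of 1.22% of tested genes, whereas at 6 h the groups overlapped. The median log2 change over all tested genes was -0.35 in the same comparison. The DMSO libraries differed among themselves in scale. Their median FPKM of tested genes was 6.12, 12.1 and 10.2 in replicates 1, 2 and 3, against 6.30, 6.69 and 8.01 after 24 h. With each library centred on its median, the MUC1 difference at 24 h was 0.05 ± 0.14 (adjusted p = 0.836) and the groups overlapped. Adding 1 FPKM understates a change at this level, whereas centring subtracts the whole library shift. The centred value therefore cannot show how far MUC1 followed that shift. At 6 h the centred change was -0.25 ± 0.14 (adjusted p = 0.235). No gene passed in PATU-8988T as deposited, at 6 h (0% of tested genes) or at 24 h (0%), and 287 and 687 genes had an unadjusted p below 0.05 at these times.

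**Figure D3:**
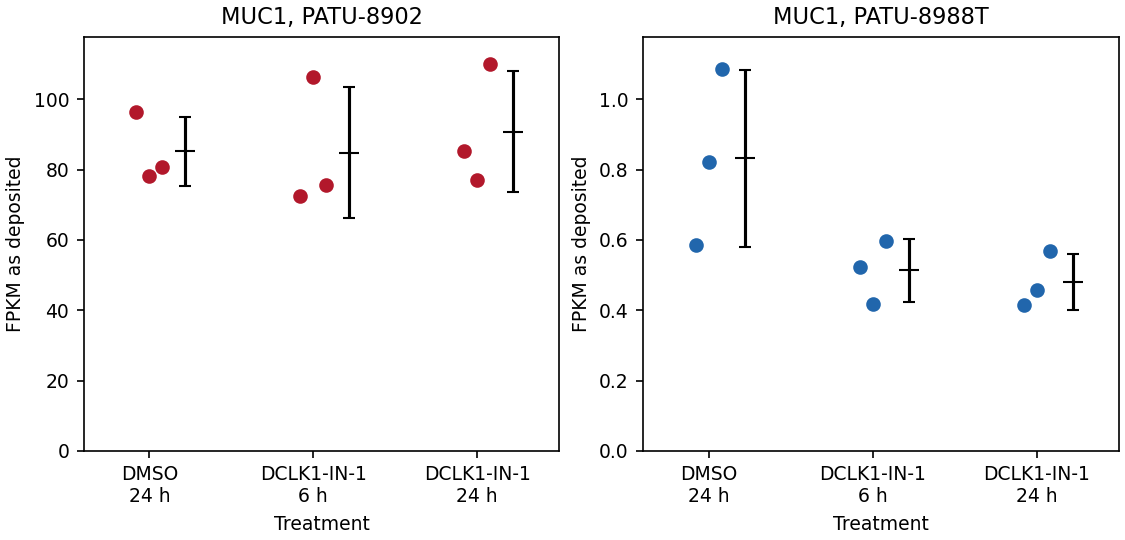
MUC1 FPKM in each library (points) by treatment, with the mean and SD of 3 libraries in black, in PATU-8902 (left panel) and PATU-8988T (right panel), each on its own linear axis from 0. The groups of PATU-8902 overlap, and in PATU-8988T the libraries of 24 h inhibitor, at 0.414 to 0.570 FPKM, lie below those in DMSO, at 0.585 to 1.09 FPKM.

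Between the inhibitor times the MUC1 difference was 0.10 ± 0.19 in PATU-8902 (24 h against 6 h, log2, SE, limma, adjusted p = 1.00) and -0.03 ± 0.19 in PATU-8988T (adjusted p = 0.906). The difference between the lines in the response of MUC1 was 0.25 ± 0.27 at 6 h (adjusted p = 1.00) and 0.38 ± 0.27 at 24 h (adjusted p = 0.547), PATU-8902 minus PATU-8988T. Neither passed. No gene passed between the times in either line (0% each, with 197 genes in PATU-8902 and 665 in PATU-8988T at an unadjusted p below 0.05), nor for the response at 6 h (0%, with 99), and 0.00871% of tested genes passed for the response at 24 h. Without the filter the shares of all genes were 0.0419% and 0.0495% between the times in PATU-8902 and PATU-8988T, 0% for the response at 6 h and 0.00762% at 24 h. After centring, with the limit given above for MUC1 in PATU-8988T, the differences in response were 0.28 at 6 h and -0.03 at 24 h.

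**Figure D4:**
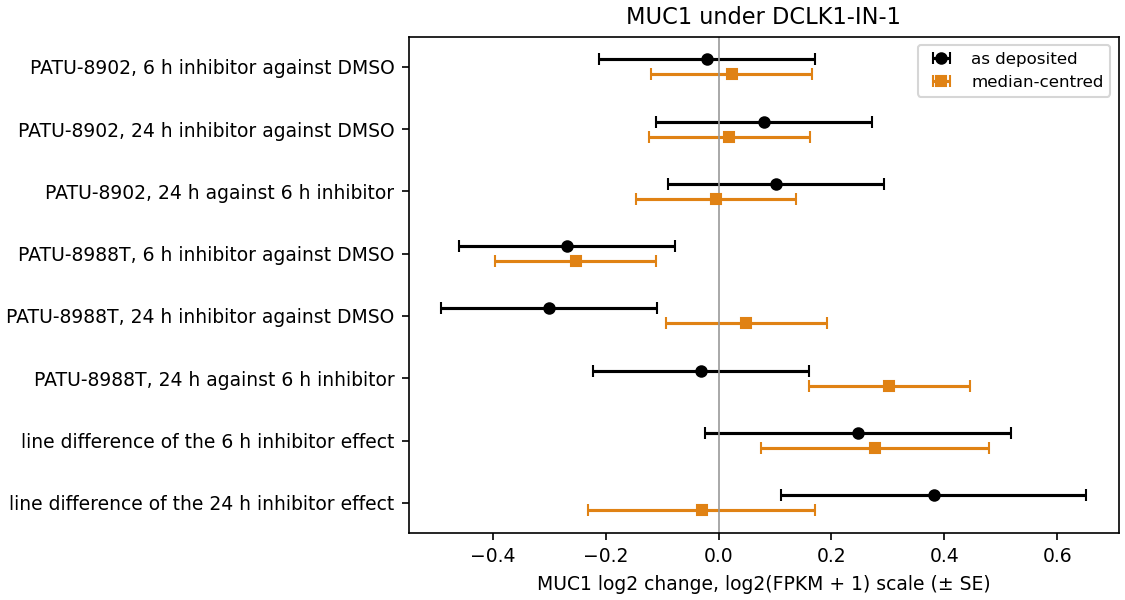
Log2 change of MUC1 with its SE in the 8 comparisons of inhibitor, time and line, on values as deposited (black circles) and centred on the library median (orange squares). The bars of PATU-8902 span 0 on both scales, and the 24 h change in PATU-8988T is -0.30 as deposited and 0.05 after centring. In PATU-8988T adding 1 FPKM understates a change of MUC1, while centring subtracts the full library shift.

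MUC16 was the low mucin with the smallest p under the inhibitor. In PATU-8902 it was at 0.330, 0.291 and 0.275 FPKM after 24 h of inhibitor, against 0.1995, 0.253 and 0.196 FPKM in DMSO. After 6 h it was at 0.231, 0.304 and 0.217 FPKM, which overlapped both. The 24 h and DMSO libraries did not overlap, which held in this direction for 3.14% of all 26249 genes. The log2(FPKM + 1) change was 0.09 ± 0.02 (SE, limma, unadjusted p = 0.00143) and did not pass after adjustment over all genes (adjusted p = 0.436). With each library centred on its median the value was 0.03. In PATU-8988T the MUC16 difference after 24 h was -0.01, and the difference between the lines was 0.11 ± 0.03 (unadjusted p = 0.00685, adjusted p = 0.615). After 24 h in PATU-8902 the difference was -0.08 ± 0.09 for MUC20 and -0.02 ± 0.05 for MUC13, neither past the threshold (adjusted p = 1.00 each).

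Enzymes that build mucin-type O-glycans differed between the lines in both directions. Of 28 listed genes 19 were tested, and in DMSO 11 were higher in PATU-8902, 2 were lower and 6 did not pass, beside 41.8% higher and 12.4% lower among all tested genes. The median log2 difference was 1.00 for the list and 0.45 over all tested genes. Some listed genes passed the filter through PATU-8902 or PATU-8988T alone, so the counts and the list median partly reflect that selection. GALNT3, which adds the first GalNAc to the protein, averaged 46.2 ± 2.85 FPKM in PATU-8902 and 0.170 ± 0.0514 FPKM in PATU-8988T (SD, n = 3 each), a difference of 5.33 ± 0.16 (SE, limma, adjusted p = 2.92e-15). The lines did not overlap for it in any condition. B4GALNT3, which forms the LacdiNAc ending, differed by 5.06 ± 0.20, B3GNT3, which extends core 1 glycans, by 3.47 ± 0.25 and FUT3, the Lewis fucosyltransferase, by 3.15 ± 0.14. The 2 lower genes were GALNT14, a further initiating enzyme, at -1.88, and the sialyltransferase ST6GALNAC4 at -1.39, named because the count is small. After centring the split was 11 higher and 7 lower, beside 34.4% higher and 37.8% lower among all tested genes, with a median of 0.50, and GALNT1 and GALNT4 changed sign.

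Genes of mucin folding and granule release were sparse. Of 14 listed genes 5 were tested, and 4 were higher in PATU-8902 in DMSO and none lower, beside 41.8% and 12.4% of all tested genes. They were VAMP8, a vesicle SNARE, at 1.98 ± 0.31, RAB27A, a granule GTPase, at 1.33 ± 0.20, UNC13D, a priming factor, at 1.10 ± 0.29 and STXBP2, a syntaxin partner, at 0.83 ± 0.29 (log2 difference in DMSO, SE). The fifth, CREB3L4, did not pass and changed sign on centring, where it was lower. AGR2, a disulfide isomerase that in mice is needed to fold the intestinal mucin Muc2, was at the floor in all 18 libraries.

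Transcription factors of epithelial, gastric and goblet lineages also differed in both directions. Of 19 listed factors 11 were tested, with 6 higher in PATU-8902, 1 lower and 4 not past the threshold in DMSO, counts that lie near the shares of all tested genes (41.8% higher and 12.4% lower). The median log2 difference was 2.03, against 0.45 over all tested genes. EHF, an ETS factor of epithelia, averaged 61.4 ± 3.27 FPKM in PATU-8902 and 0.0828 ± 0.0159 FPKM in PATU-8988T (SD, n = 3 each), a difference of 5.85 ± 0.16 (SE, limma, adjusted p = 8.12e-16). GRHL2, a grainyhead factor that maintains epithelial junctions, differed by 5.30 ± 0.18, ELF3, another epithelial ETS factor, by 2.69 ± 0.15 and FOXA2, a forkhead factor of endoderm, by 2.58 ± 0.15. GATA4, a factor of the stomach and foregut, was the lower one at -1.58. EHF, GRHL2, ELF3, FOXA2 and GATA6 stayed below 1 FPKM in every PATU-8988T library and passed the filter through PATU-8902 alone. The count of 6 higher factors and the list median partly reflect that selection. Centring gave 6 higher and 4 lower, beside 34.4% and 37.8% of all tested genes, and FOXA1 and PDX1 changed sign. SPDEF, a goblet cell factor, stood between 0.0967 and 0.181 FPKM in PATU-8902 and between 0.0849 and 0.117 FPKM in PATU-8988T.

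Proteins that bind or cleave membrane mucins were higher in PATU-8902 for 7 of 9 tested genes in DMSO, with none lower, beside 41.8% higher and 12.4% lower among all tested genes. Their median log2 difference was 1.73, against 0.45 over all tested genes. Some of them passed the filter through PATU-8902 alone, so their counts and median partly reflect that selection. MMP14, a membrane protease able to shed MUC1, differed by 5.51 ± 0.17, the receptor ERBB3 by 3.42 ± 0.19, LGALS3, a galectin that binds mucin glycans, by 3.32 ± 0.30 and MSLN, the mesothelin that binds MUC16, by 2.68 ± 0.18 (log2, SE, DMSO). After centring 7 were higher and 2 were lower, beside 34.4% and 37.8% of all tested genes. Among partners of the trefoil factors 1 of 6 was tested, DMBT1, a mucosal scavenger glycoprotein, which differed by 2.30 ± 0.17. Of 14 further mucins, 13 never exceeded 1 FPKM and 8 were at the floor in all libraries. CD164, an endosomal sialomucin, was the exception, with 138.6 ± 5.84 FPKM in PATU-8902 and 53.6 ± 8.70 FPKM in PATU-8988T in DMSO (SD, n = 3 each) and a difference of 1.37 ± 0.24. In every comparison of inhibitor or time, on deposited values, no gene of these 6 lists passed.

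**Figure D5:**
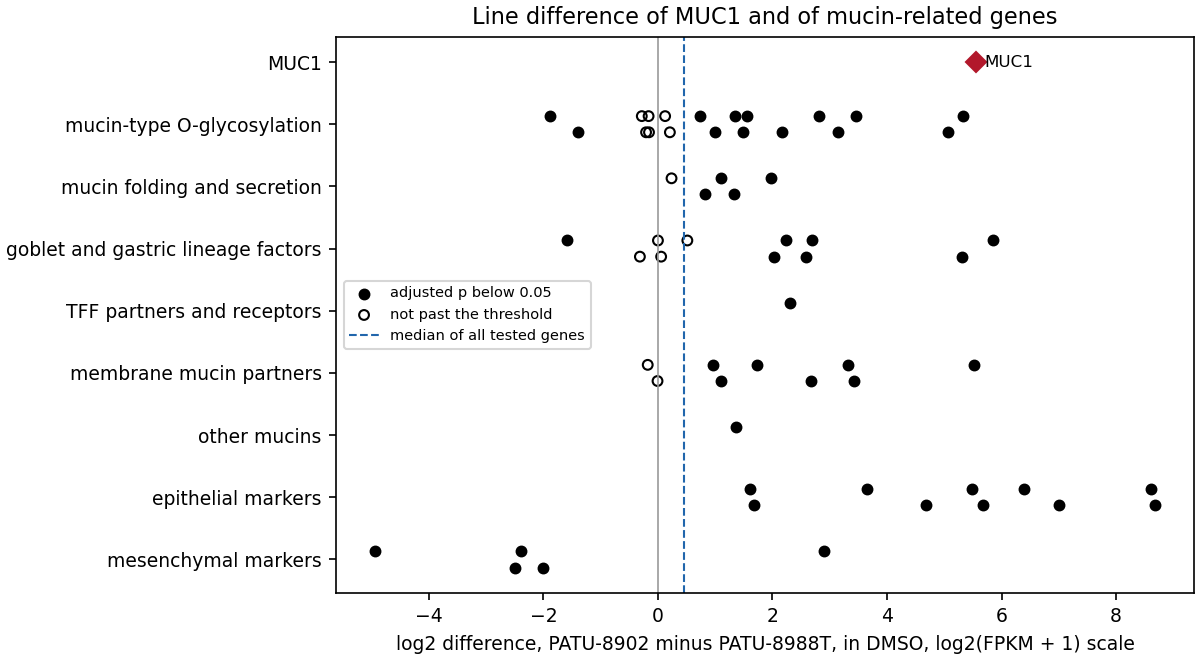
Log2 difference between PATU-8902 and PATU-8988T in DMSO for MUC1 (diamond) and for the tested genes of each list (1 point for each gene, filled where the adjusted p was below 0.05), with the median of all tested genes dashed. MUC1, at 5.56, lies in the range of the epithelial markers and to the right of all but 1 of the mucin-related genes.

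Markers of epithelium also differed between the lines. All 10 epithelial markers were higher in PATU-8902 in DMSO, beside 41.8% higher and 12.4% lower among all tested genes. CDH1, KRT19, KRT7, CLDN4, CLDN7, ESRP1 and ESRP2 stayed below 1 FPKM in every PATU-8988T library and passed the filter through PATU-8902 alone. That selection largely fixed their direction, so the count is no separate support for a line difference. Their summed level was 3088 to 5617 FPKM in PATU-8902 and 381 to 974 FPKM in PATU-8988T over all conditions. KRT19, the ductal keratin, differed by 8.68 and CDH1, which encodes E-cadherin, by 6.39, with CDH1 at 0.0783 to 0.192 FPKM in PATU-8988T, next to the floor. Of 7 mesenchymal markers 5 were tested. In DMSO VIM, CDH2, ZEB1 and FN1 were lower in PATU-8902 and SNAI2 higher, beside the same shares of all tested genes. ZEB1 and FN1 passed the filter through PATU-8988T alone and SNAI2 through PATU-8902 alone. The sum of the 7 was 13.6 to 25.4 FPKM in PATU-8902 and 151 to 313 FPKM in PATU-8988T. KRT19 was at 0.0689 to 0.150 FPKM in PATU-8988T, also next to the floor. Other epithelial markers were expressed there: KRT8 and KRT18, the keratins of simple epithelium, stood at 168 to 442 FPKM and 201 to 514 FPKM, and EPCAM, an epithelial adhesion molecule, at 9.67 to 17.2 FPKM in PATU-8988T. Markers of endothelium, fibroblasts and acinar cells had no tested member, with summed levels of at most 1.39 FPKM in PATU-8902 and 0.792 FPKM in PATU-8988T. Of 5 leukocyte markers only CD68 was tested, with a summed level of 10.3 to 17.6 FPKM in PATU-8902 and 3.86 to 10.4 FPKM in PATU-8988T. No endocrine marker was tested, and their sum was at most 0.762 FPKM in PATU-8902 and 2.53 FPKM in PATU-8988T. The highest of them in PATU-8988T was CHGB, at 0.891 to 2.14 FPKM there and 0.107 to 0.216 FPKM in PATU-8902. It missed the filter with a mean of 0.782 FPKM over the 18 libraries. The part of these marker differences in the MUC1 difference was not tested.

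The gene whose pattern over the 18 libraries was most like that of MUC1 was SULF2. After centring each library and subtracting each gene's mean, the root mean square difference from MUC1 was 0.10 for SULF2 on the log2 scale, among 11152 genes compared, where the pattern of MUC1 itself had a root mean square of 2.58. SULF2, an enzyme that removes sulfates from heparan sulfate, averaged 65.5 FPKM in PATU-8902 and 0.193 FPKM in PATU-8988T. The pattern of MUC1 is almost wholly the step between the lines, so likeness here means a step of like size.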

How the data were processed

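Poly(A) RNA of 18 libraries was measured by single-end sequencing, after ERCC spike-ins had been added to RNA set to cell number, per the labels' protocols. The authors deposited 1 table of FPKM values with 26341 rows, 92 of them spike-ins. HISAT, Cufflinks and Cuffnorm and the build hg19 are named per the submitters' processing notes, and their versions are not given in the sources. Spike-in scaling keeps differences in total RNA, so a shift of all genes enters each fold change. The average log2 deviation of 47 spike-ins was -0.065 to 0.047 in a library.

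One limma 3.58.1 model (R 4.3.3), with its trend option, described log2(FPKM + 1) of all 11477 genes that averaged 1 FPKM or more, with 6 group means and 12 residual degrees of freedom. P-values were 2-sided, with Benjamini-Hochberg adjustment over all tested genes of each of 11 comparisons, and 0.05 as the threshold. Alternatives were median-centring, no filter, a filter of 5 FPKM, a pseudocount of 0.1, rescaling on the spike-ins, the compared groups alone, a replicate block and leaving out each library. The model was tested on simulated data in which every library had the PATU-8902 DMSO means with independent noise for each gene. Of these genes, 200 were changed in the PATU-8902 group of 24 h inhibitor. The simulated data held no line difference and no shift of a whole library, so they cannot show how the model handles these. A gene high in 1 line alone could pass the filter, as MUC1 did through PATU-8902. Line differences, list counts and list medians of tested genes partly reflect that selection. The members and lists were chosen with earlier results of these data known. Named were all members and, per list and comparison, up to 4 genes past the threshold with the largest change; other named genes were chosen after their values were seen. The 2 genes most like MUC1 were ranked by root mean square difference, and 1 of them is not reported here.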

Additional observations from a re-analysis of the deposited data

How the results depend on the processing

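MUC1 passed in all 3 line comparisons under every alternative, and no member passed in any comparison of inhibitor, time or response. Leaving out 1 library gave line differences of 5.46 to 5.66 in DMSO, 5.63 to 5.91 after 6 h and 5.79 to 6.05 after 24 h, with 1 member past the threshold each time. Without a filter on low values the number of members past the threshold in DMSO, after 6 h and after 24 h was 5, 4 and 4, against 1 each with it. Of all 26249 genes, 29%, 28.5% and 36.9% passed in these comparisons without the filter, in either direction. Adding a pseudocount of 0.1, chosen after seeing the data, made these 5, 4 and 5, the last including MUC5B at 0.14. The shares of all genes were then 29.5%, 28.9% and 38.2%. After 24 h MUC5B averaged 0.105 FPKM in PATU-8902 and 0.0858 FPKM in PATU-8988T. TFF1, at the floor, averaged 0.101 and 0.0859 FPKM there, so the floor itself differed between the lines. The additional members averaged below 1 FPKM over the 18 libraries and were left out by the filter's own construction.

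Directions of MUC1 that had not passed changed sign on median-centring. In PATU-8902 the values were 0.0235 (6 h against DMSO) and -0.0046 (24 h against 6 h), in PATU-8988T 0.049 (24 h against DMSO) and 0.30 (24 h against 6 h), and the response difference at 24 h was -0.0302. The same values came from centring together with the replicate block. Where PATU-8988T enters, they set a MUC1 change understated by adding 1 FPKM against the full library shift. Leaving out 1 library gave MUC1 ranges of -0.193 to 0.0794 (6 h) and -0.0639 to 0.19 (24 h) in PATU-8902, -0.0429 to 0.274 for 24 h against 6 h there, -0.37 to -0.17 (6 h) and -0.40 to -0.20 (24 h) in PATU-8988T, and -0.0775 to 0.0087 for 24 h against 6 h. Without a filter, and chosen after seeing the data, centring gave line differences in DMSO, after 6 h and after 24 h of 0.33, 0.41 and -0.14 for MUC20, -0.18, -0.15 and -0.59 for MUC13, and -0.35, -0.29 and -0.65 for MUC16. TFF1, at the floor throughout, moved by -0.49, -0.45 and -0.89.

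Gene by gene, same-numbered libraries did not deviate together: over 15 pairs of groups the correlation ran from -0.22 to 0.14. That correlation leaves out any shift of a whole library, so it cannot show whether the numbers pair libraries in scale. In PATU-8988T replicate 1 had the lowest median FPKM of each group, at 6.12 in DMSO, 7.08 after 6 h and 6.30 after 24 h. In PATU-8902 replicate 1 was the highest in DMSO, at 14.9, and the lowest after 6 h, at 10.7. With the number as a replicate block the line difference of MUC1 stayed 5.56, 5.81 and 5.94, and 1, 1 and 1 members passed. Depth is unknown, and genes next to the floor cannot be told from unexpressed ones.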
